A study of Mus musculus with 12 samples.

Results

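The 6 genes that encode the retinoic acid receptors (Rara, Rarb and Rarg) and the retinoid X receptors (Rxra, Rxrb and Rxrg) were described across 12 RNA-seq libraries of mouse embryonic stem cells. They were chosen by name, and each had 1 row among the 23668 distinct rows of the gene-level abundance table. The cells, of the strain label SV129, grew on gelatin with leukemia inhibitory factor. Wild type (WT) cells and cells labelled RARalpha-/-, RARbeta-/-, RARgamma-/- (TKO) received ethanol vehicle or 1 uM all-trans retinoic acid (ATRA) for 24 h, with 3 libraries in each of the 4 groups. The exons removed in TKO cells, the number of clones and the source of the replicate libraries are not known from the sources used here.

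Retinoic acid receptors (RARs) are nuclear receptors that bind ATRA and sit on DNA as heterodimers with a retinoid X receptor (RXR). Without ligand the pair recruits corepressors, and ATRA exchanges them for coactivators at genes that carry a direct repeat of a hexamer. RXRs also pair with other nuclear receptors, among them thyroid hormone receptors, peroxisome proliferator-activated receptors and liver X receptors. In embryonic stem cells ATRA is a widely used signal for differentiation, and Rarb is a textbook direct target of RARs.

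The sequence at Rarb is shown first because the largest change among the 6 genes was at Rarb. RefSeq promoter windows of build GRCm38.p6 (250 bases before to 50 after a start site) numbered 13 for the 6 genes. They were searched on both strands for 2 copies, in the same direction, of the hexamer AGGTCA or its variants (AGTTCA and also GGGTCA and also GGTTCA), 5 bases apart (DR5) or 2 bases apart (DR2). One window held a DR5, that of Rarb, and none held a DR2. Of all 32851 windows 0.0974% held a DR5 and 0.268% a DR2, while 43.7% held at least 1 single hexamer. In the Rarb window (chr14:16575427-16575726, minus strand) the DR5 lay 53 to 37 bases before the RefSeq start site at 16575476. In GENCODE M21 the protein-coding transcript Rarb-201 starts at 16575543, farther upstream, so the DR5 lies inside that transcript. In the window, capitals mark hexamers on either strand, and the DR5 is the pair GGTTCA and AGTTCA.
Rarb window: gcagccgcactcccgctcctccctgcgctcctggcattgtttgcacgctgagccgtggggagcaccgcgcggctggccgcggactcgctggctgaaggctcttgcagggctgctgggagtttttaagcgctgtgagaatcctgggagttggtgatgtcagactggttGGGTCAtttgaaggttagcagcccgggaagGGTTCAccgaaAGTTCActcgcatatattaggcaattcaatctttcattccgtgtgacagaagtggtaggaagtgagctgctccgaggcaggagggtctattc

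Windows of Rara and Rarg are shown for contrast, since both genes also rose with ATRA in WT cells; for each the window with the most hexamers was taken. The Rara window (chr11:98939461-98939760, plus strand, at Rara-206 and Rara-207) held 4 single hexamers, and the Rarg window (chr15:102257473-102257772, minus strand, at Rarg-201) held 1. Absence of a DR5 or DR2 says only that these letters are not in these windows.
Rara window: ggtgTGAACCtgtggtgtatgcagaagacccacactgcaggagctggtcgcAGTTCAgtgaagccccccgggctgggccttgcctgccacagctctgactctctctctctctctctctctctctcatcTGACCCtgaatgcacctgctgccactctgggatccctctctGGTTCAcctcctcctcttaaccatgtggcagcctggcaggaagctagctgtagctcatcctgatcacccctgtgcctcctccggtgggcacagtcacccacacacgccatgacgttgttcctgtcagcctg
Rarg window: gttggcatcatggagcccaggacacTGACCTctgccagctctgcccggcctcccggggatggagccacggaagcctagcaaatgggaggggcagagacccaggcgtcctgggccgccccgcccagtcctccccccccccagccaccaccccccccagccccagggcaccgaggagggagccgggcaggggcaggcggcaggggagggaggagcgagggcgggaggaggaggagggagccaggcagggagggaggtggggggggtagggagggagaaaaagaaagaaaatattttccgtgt

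DR5 repeats were found in windows of 31 genes, of which 4 matched a tested gene by symbol. Below, each is written along its own strand, with the hexamers in capitals. Cyp26a1, whose product breaks down retinoic acid, and Rarb rose with ATRA in WT cells, where 11.6% of all tested genes were called higher. Rarb was tested only because of its level in the WT libraries with ATRA, which favoured a rise. The log2 changes of Blvrb, a biliverdin reductase gene, and of Syndig1 were 0.01 and −0.15 (adjusted p = 0.976 and 0.643 in limma).
Rarb (chr14:16575513-16575529, minus strand): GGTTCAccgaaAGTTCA
Cyp26a1 (chr19:37697776-37697792, minus strand): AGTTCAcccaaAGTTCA
Blvrb (chr7:27452399-27452415, minus strand): AGTTCAaagccAGTTCA
Syndig1 (chr2:149830616-149830632, plus strand): GGGTCAcccctAGTTCA

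Levels are FPKM, the authors' fragments per kilobase of transcript and per sequenced total, which are scaled per length and can be set side by side between genes. Total depth is unknown from FPKM, so no counting interval is given, and summed FPKM per library ran from 584684 to 644472. The cells carried the profile of the label: all 10 embryonic stem cell markers had means over 1 FPKM in every group, and their summed level was 7737 to 9069 FPKM in vehicle and 5117 to 6406 with ATRA in WT cells, and 6472 to 7070 over the TKO libraries. Dppa5a and Pou5f1 made up most of these sums, with WT means of 4566 and 1351 FPKM in vehicle and 3353 and 828 with ATRA. The WT mean of Tdgf1 went the other way, from 630 to 718 FPKM. Of 8 fibroblast markers 6 had means under 1 FPKM in every group, the exceptions being Thy1 and Pdgfrb, and Lum was listed at 0 in all libraries. The 9 extraembryonic endoderm markers summed to 26.9 to 34.7 FPKM in WT vehicle and to 60.6 to 81.4 after ATRA, against 57.8 to 90.02 and 54.3 to 97.6 in the matching TKO groups. In bulk RNA, fewer cells of a type and less RNA per cell cannot be told apart. Libraries carry the letters D, F and G, which paired vehicle and ATRA libraries within a genotype, as found from the data.

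Rarg, which encodes RAR gamma, was the most abundant of the 6 genes in WT cells, and Rxrb took that place in TKO cells. In WT vehicle the order by mean was Rarg, Rxrb, Rara, Rxra, Rarb and Rxrg, and the libraries of neighbours in this order did not overlap. With ATRA the WT order was the same, again without overlap. In both TKO groups Rxrb came before Rarg, Rara and Rxra, without overlap among these 4. Rarb and Rxrg lay at the bottom, and in TKO with ATRA their libraries overlapped. The RAR genes are the targeted ones in TKO cells, where a gene-level value does not tell intact transcripts from ones that lack exons.

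**Figure D1:**
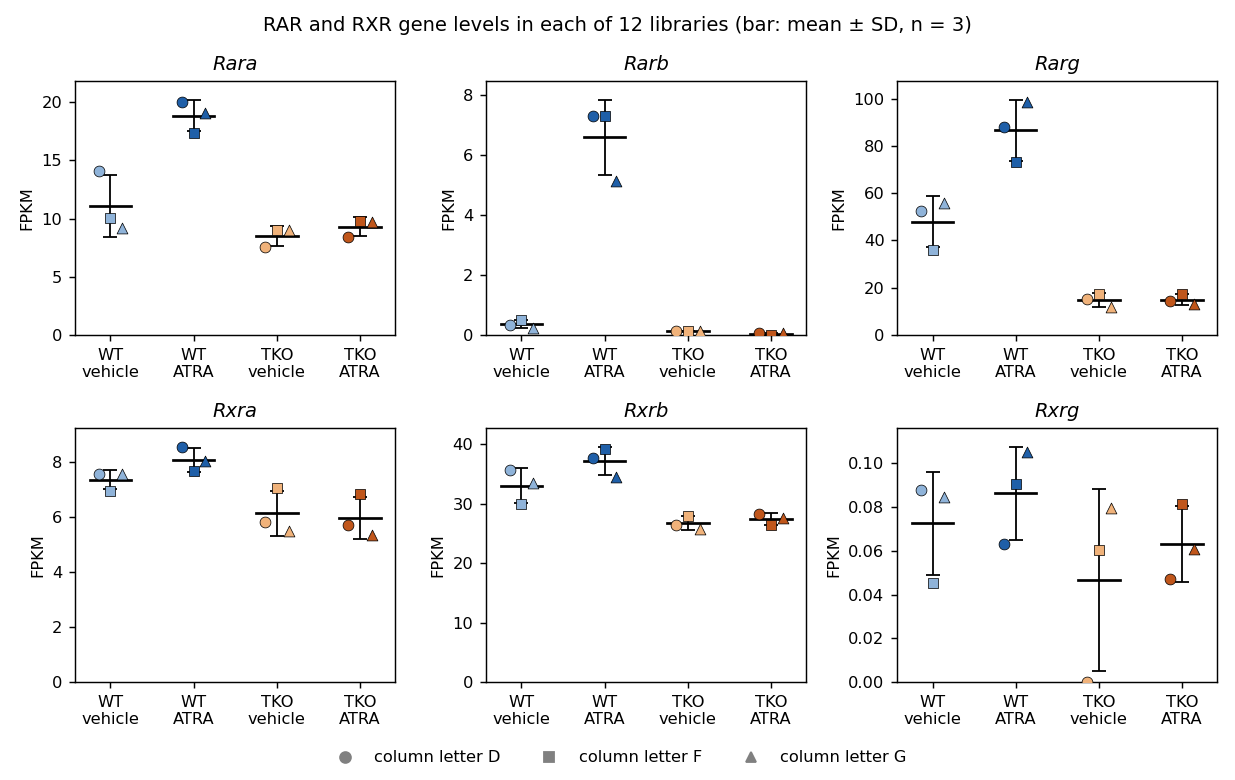
Level in FPKM (vertical axis, from 0 in each panel) of the 6 receptor genes in each library, by group; symbols give the column letter, and bars the mean ± SD of 3 libraries. Rara, Rarb and Rarg are higher in WT with ATRA than in any other group, while Rxra and Rxrb span 5.37 to 8.57 and 25.8 to 39.1 FPKM over all libraries.

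The first comparison asks how ATRA changes the receptor genes in cells that carry all 3 RARs. Rarg stood at 52.4, 35.8 and 55.8 FPKM in the D, F and G libraries of WT vehicle and at 87.8, 73.02 and 98.7 with ATRA. The groups did not overlap, and in both F was the lowest library, so that the ratio of ATRA to vehicle within letters was 1.68, 2.04 and 1.77. In limma the log2 change was 0.85 (95% interval 0.43 to 1.27, adjusted p = 0.0109).

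Rara, the RAR alpha gene, was at 14.1, 10.03 and 9.15 FPKM in WT vehicle and at 20.04, 17.4 and 19.1 with ATRA, in the order D, F, G. The D library of vehicle was the highest of its group, and its ratio, 1.42, was the lowest of the 3 letters (1.73 in F and 2.09 in G). The log2 change was 0.73 (0.42 to 1.05, adjusted p = 0.00506 in limma).

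Rarb, the RAR beta gene, was at 0.341, 0.506 and 0.235 FPKM in WT vehicle and at 7.296, 7.29 and 5.13 with ATRA. Every ATRA library was above 5 FPKM and every vehicle library under 1 FPKM. The mean with ATRA was 18.2 times that in vehicle. On a log2 scale with 1 added, where changes of low genes come out too small, the change was 2.47 (2.19 to 2.75, adjusted p = 5.03e-07 in limma), and 3.88 with a pseudocount of 0.1. Rarb reached the filter of 1 FPKM in 3 libraries only through the WT libraries with ATRA, so it had to differ there; without the filter its adjusted p was 1.31e-06. The deposited row for Rarb lists 1 RefSeq transcript and spans 144372 bp. In GENCODE M21 the span is 144491 bp for Rarb-207, 144705 bp for Rarb-201 and 310092 bp for Rarb-203, which starts farther upstream. The row is closest in span to Rarb-207 and Rarb-201, which start upstream of the DR5, at 16575827 and 16575543. The RefSeq start site (16575476) and the starts of Rarb-202 and Rarb-205 (16575472 and 16575440) lie downstream of the DR5. A span depends on both ends of a transcript, so it does not fix where the transcript of this row starts. Which start site was in use was not tested.

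Rxra and Rxrb, the broadly expressed partner genes, did not pass in WT cells. Rxra was at 7.58, 6.96 and 7.58 FPKM in vehicle and at 8.57, 7.69 and 8.06 with ATRA, higher in 3 of 3 letters and without overlap between the groups. Its log2 change was 0.12 (−0.13 to 0.37, adjusted p = 0.535 in limma). Rxrb was at 35.7, 29.9 and 33.5 FPKM and at 37.7, 39.1 and 34.5 with ATRA. Those groups overlapped, and the ratio within letters was 1.06 in D, 1.31 in F and 1.03 in G. Its log2 change was 0.17 (−0.02 to 0.35, adjusted p = 0.227). The upper ends of both intervals lie under the estimates for the 3 RAR genes, while the differences between genes were not tested.

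Rxrg, the RXR gamma gene, was between 0.0454 and 0.105 FPKM in the 6 WT libraries and did not reach the filter. Without the filter its log2 change was 0.02 (−0.05 to 0.09, adjusted p = 0.792 in limma). Rarb is in the counts that follow, although its selection by the filter favoured a rise. Of the 5 members tested, 3 were called for ATRA in WT cells, where 16.7% of all 12362 tested genes were called. All 3 were higher, as were 11.6% of tested genes. The libraries of 4 members did not overlap, against 34.4% of all tested genes; all 4 were higher with ATRA, as were 22.9% of tested genes.

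**Figure D2:**
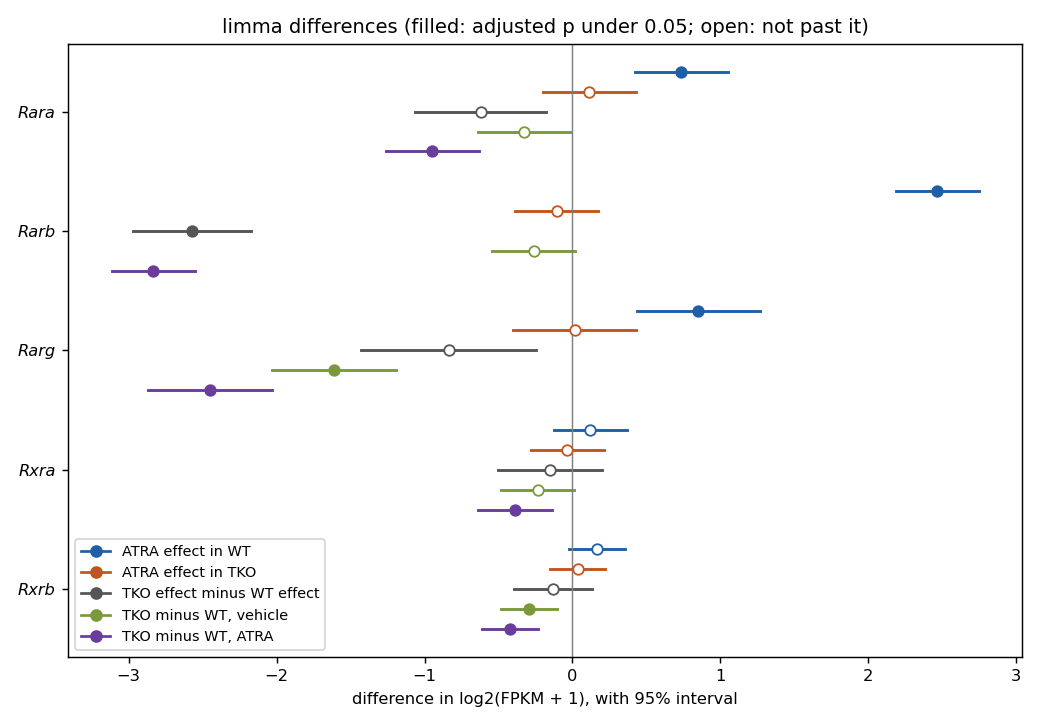
Differences in log2(FPKM + 1) from limma (horizontal axis) with 95% intervals for the 5 tested receptor genes in the 5 comparisons; filled points have an adjusted p under 0.05. The ATRA effect in WT is filled for Rara, Rarb and Rarg and open for Rxra and Rxrb, the ATRA effect in TKO is open for all 5, and TKO minus WT under ATRA is filled for all 5.

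The same question in TKO cells asks whether the remaining transcripts move with ATRA. Rarg was at 15.4, 17.5 and 11.8 FPKM in vehicle and at 14.5, 17.4 and 13.1 with ATRA, in the order D, F, G. The letters kept their order in both treatments, and the groups overlapped. The log2 change was 0.01 (−0.40 to 0.43). Rara was at 7.55, 9.03 and 9.03 FPKM and at 8.38, 9.82 and 9.70 with ATRA, higher by 1.07 to 1.11 times within each letter. Its log2 change was 0.11 (−0.20 to 0.43), and in a fit of TKO libraries blocked by letter it was 0.11 (0.01 to 0.21, adjusted p = 0.734 in limma).

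Rarb in TKO was at 0.122, 0.139 and 0.134 FPKM in vehicle and at 0.0674, 0.01501 and 0.0725 with ATRA. It was lower with ATRA in 3 of 3 letters and without overlap, at levels under 0.2 FPKM. The log2 change was −0.11 (−0.39 to 0.17, adjusted p = 1.00 in limma), and with a pseudocount of 0.1 it was −0.63 (−1.24 to −0.03, adjusted p = 1.00). The 3′ end of Rarb overlaps Top2b, a topoisomerase gene on the opposite strand, over 4624 bp (chr14:16430839-16435462 in GRCm38, GENCODE M21). No source used here says whether the counting used strand, and without strand the reads of the 2 genes within this overlap cannot be told apart. Top2b had means of 21.9 FPKM in WT vehicle and 11.3 in TKO vehicle (log2 difference −0.91, adjusted p = 5.4e-04). It also moved in the direction of Rarb with ATRA in WT (0.43, adjusted p = 0.0344) and in TKO against WT under ATRA (−1.38, adjusted p = 8.87e-06). The part of Top2b reads in the Rarb value was not tested.

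Rxra in TKO was at 5.84, 7.08 and 5.51 FPKM in vehicle and at 5.72, 6.84 and 5.37 with ATRA. Rxrb was at 26.4, 27.9 and 25.8 and at 28.3, 26.3 and 27.5. The groups overlapped for both. Their log2 changes were −0.03 (−0.28 to 0.21) and 0.04 (−0.15 to 0.22). Rxrg was listed at 0 in the D library of vehicle and at 0.0472 to 0.0814 FPKM in the other 5 TKO libraries. No member was called in TKO, where limma called 0% of all tested genes and 12 of 12362 had an unadjusted p under 0.05. That is far below a share of 0.05, which this level would give if no gene changed. The model keeps the differences between letters in its spread, so its intervals and p-values in TKO are wide. With libraries blocked by letter inside each genotype the Rarg interval was −0.12 to 0.15, and again 0 genes were called. Rarb was the 1 tested member whose libraries did not overlap, against 1.33% of all tested genes in either direction and 0.599% lower with ATRA.

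The difference of these effects, TKO minus WT, was tested directly. For Rarb it was −2.57 (95% interval −2.97 to −2.18, adjusted p = 1.77e-05 in limma), and −4.51 (−5.37 to −3.66) with a pseudocount of 0.1. Rarb reached the filter only through the WT libraries with ATRA, which favoured such a difference. Without the filter its adjusted p was 3.24e-05 in limma. For Rara it was −0.62 (−1.07 to −0.18, adjusted p = 0.114) and for Rarg −0.84 (−1.43 to −0.25, adjusted p = 0.108), neither past the threshold. With libraries blocked by letter inside each genotype both passed, with adjusted p = 0.00218 for Rara and 7.40e-05 for Rarg. Without the D library of WT vehicle, the highest for Rara in its group, the Rara difference was −0.79 (adjusted p = 0.0262). For Rxra and Rxrb the differences were −0.15 (−0.50 to 0.20) and −0.13 (−0.40 to 0.13), and the block did not bring them past the threshold (adjusted p = 0.137 and 0.305). Without the block 1 of 5 tested members was called, against 5.43% of all tested genes (3.96% in the direction of Rarb), and 3 were called with it, against 39%. These comparisons share libraries with the 2 ATRA comparisons above.

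TKO was then set against WT in vehicle, which also checks the targeted genes. In TKO vehicle the mean of Rarg was 31.1% of WT, that of Rarb 36.5% and that of Rara 76.98%, and signal for all 3 targeted genes was above 0 in every library labelled TKO. A gene-level value does not tell an intact transcript from one that lacks exons, and it is no measure of receptor protein. Every TKO library of Rarg lay under every WT library, with a log2 difference of −1.61 (−2.03 to −1.19, adjusted p = 2.5e-04 in limma). For Rara the highest TKO library (9.03 FPKM) and the lowest WT library (9.15 FPKM) lay close together, and the difference was −0.32 (−0.64 to −0.01, adjusted p = 0.121). For Rarb it was −0.26 (−0.54 to 0.02, adjusted p = 0.161) with a pseudocount of 1 and −0.95 (adjusted p = 0.0281) with a pseudocount of 0.1, also without overlap between libraries.

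The RXR genes were not targeted, and both tested ones were lower in TKO on average. Rxrb in TKO vehicle had 80.9% of its WT mean, with libraries at 25.8 to 27.9 FPKM against 29.9 to 35.7. The log2 difference was −0.29 (−0.48 to −0.11, adjusted p = 0.0281 in limma). This call was lost with the letter as a random block (adjusted p = 0.14), with the 2 vehicle groups alone (0.0849), and without the D or G library of either group (0.0678 to 0.116). Rxra in TKO vehicle had 83.3% of its WT mean, at 5.51 to 7.08 FPKM against 6.96 to 7.58. Its F library in TKO overlapped the WT group, and the difference was −0.23 (−0.48 to 0.01, adjusted p = 0.152). Rxrg had means of 0.0467 ± 0.0415 FPKM in TKO and 0.0725 ± 0.0235 in WT (SD, n = 3), and without the filter its adjusted p was 0.473. Of the 5 tested members 2 were called in vehicle, both lower, against 24.6% of all tested genes called and 12.8% called lower. The libraries of 4 did not overlap, all 4 lower, against 40.4% of all tested genes and 21.3% in that direction.

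Under ATRA all 5 tested members were lower in TKO, in a comparison where 42.1% of all tested genes were called and 25.7% were called lower. The libraries of all 5 did not overlap, against 51.8% of all tested genes and 31.7% in that direction. For the RAR genes this difference contains the rise with ATRA in WT: the TKO means were 49.4% of WT for Rara, 0.786% for Rarb and 17.3% for Rarg. Rarb reached the filter only through the WT libraries with ATRA, which favoured its place in these counts. Without the filter its adjusted p was 3.23e-07 in limma. Rxrb was at 26.3 to 28.3 FPKM against 34.5 to 39.1 (log2 difference −0.42, −0.61 to −0.24, adjusted p = 0.00225 in limma). Rxra was at 5.37 to 6.84 FPKM against 7.69 to 8.57 (−0.39, −0.64 to −0.14, adjusted p = 0.01696). The Rxra call was lost with median-of-ratios scaling (−0.31, adjusted p = 0.08499) and with quantile normalization (−0.25, adjusted p = 0.199). It was also lost without the D library of WT with ATRA or the D or G library of TKO with ATRA (adjusted p = 0.0622, 0.0552 and 0.0656). The endoderm marker sums above were higher in TKO vehicle than in WT vehicle and overlapped between the genotypes under ATRA. Col4a1, a basement membrane collagen gene, made up most of them, with means of 20.8 FPKM in WT vehicle and 47.6 in TKO vehicle. Under ATRA the markers went apart, with Gata6 (−1.48) and Sox7 (−1.46) called lower in TKO and Sox17 (0.64) and Dab2 (1.16) called higher. The part of these genes in the RXR differences was not tested.

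Summed over the family, the 3 RAR genes came to 59.4 ± 11.4 FPKM in WT vehicle and 112 ± 12.9 after ATRA (SD, n = 3). In TKO cells they came to 23.6 ± 2.89 and 24.4 ± 2.52. The RXR sums were 40.5 ± 3.29 and 45.3 ± 2.33 in WT and 32.9 ± 1.94 and 33.4 ± 0.581 in TKO. The ratio of RAR to RXR signal was thus 1.26 to 1.58 over the WT vehicle libraries and 2.08 to 2.88 with ATRA, while in all TKO libraries it was under 1 (0.670 to 0.820). In TKO cells the RAR signal is that of the targeted genes, whose transcripts may lack exons. Within the RAR family Rarg made up 80.4% ± 4.52 in WT vehicle and 62.9% ± 5.68 in TKO vehicle, and Rara 18.9% ± 4.24 and 36.5% ± 5.61. Rarb was 0.654% ± 0.387 of RAR signal in WT vehicle and 5.99% ± 1.67 with ATRA. Within the RXR family Rxrb was 81.2% to 81.9% and Rxra 17.9% to 18.6% of it in the means of the 4 groups, and Rxrg under 0.254% in every library.

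**Figure D3:**
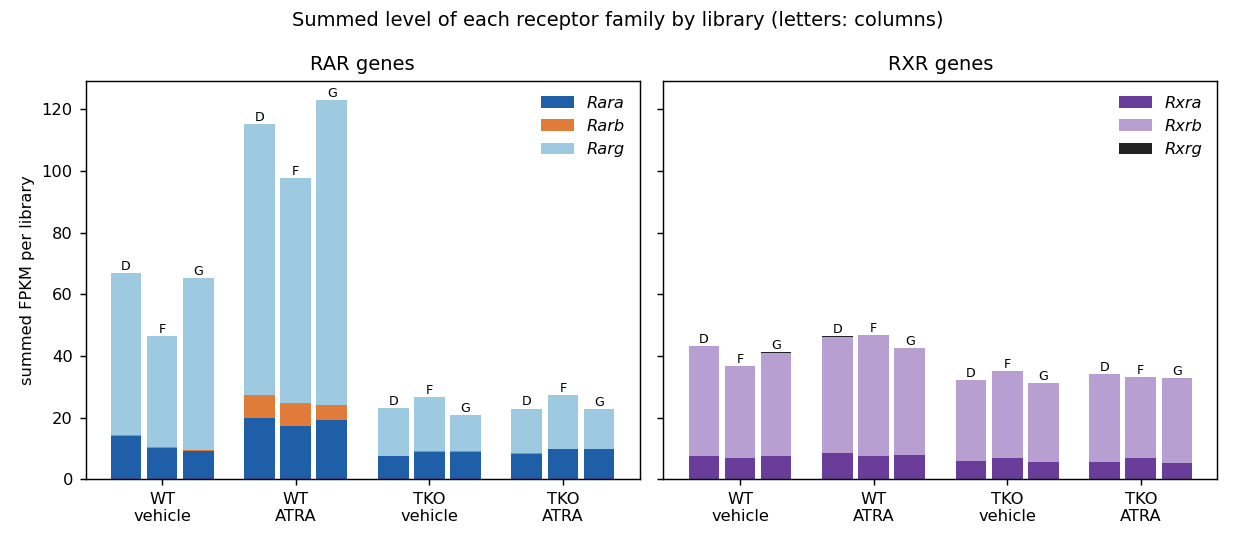
Summed FPKM (vertical axis) of the RAR genes (left) and the RXR genes (right) in each of the 12 libraries, with 1 bar per library and colours for the genes. The RAR bars run from 46.3 to 66.8 in WT vehicle, 97.7 to 123 after ATRA and 21.0 to 27.3 in TKO, and the RXR bars from 31.4 to 46.9 over all libraries.

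The genes around each receptor give its local background for TKO against WT. Rara lies on chromosome 11 (98927818 to 98974942 in GRCm38, GENCODE M21), whose other 1009 matched tested genes had a median log2 difference of 0.21 in vehicle, against −0.04 for the other autosomes. The 10 nearest tested genes, 5 on each side, had a median of 0.51 and a range of −0.13 to 1.17, and none of them was as low as Rara. Its nearest protein-coding neighbour on one side, the replication licensing gene Cdc6, had means of 12.2 FPKM in WT and 24.9 in TKO vehicle (log2 difference 0.97, adjusted p = 0.00353 in limma). On the other side Top2a, a topoisomerase gene, was at 165 and 193 (0.22, adjusted p = 0.232). Relative to its chromosome median, Rara stood at −0.53 in vehicle and −1.11 under ATRA.

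Rarg lies on chromosome 15 (102234938 to 102257517), with a chromosome median of −0.04. Its 10 nearest genes ranged from −0.71 to 0.14, all above the −1.61 of Rarg. The neighbours were the integrin gene Itgb7, at −0.71 (adjusted p = 0.0108), and the transporter gene Mfsd5, at 0.14 (adjusted p = 0.541).

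Rarb lies on chromosome 14 (16430839 to 16819156). Its 10 nearest genes had a median of −0.33 in vehicle and a range of −0.91 to 0.22. Rarb was not ranked among them there, because its level was under 1 FPKM in both genotypes and the pseudocount of 1 holds its difference near 0. Under ATRA their range was −1.38 to 0.18, all above the −2.83 of Rarb (−5.46 with a pseudocount of 0.1).

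The RXR genes lay among their neighbours. For Rxra (chromosome 2, 27676440 to 27762957) 2 of the 10 nearest genes were lower in vehicle and 3 under ATRA. For Rxrb (chromosome 17, 34031812 to 34038399) the counts were 5 and 6, and the median of its neighbours, −0.32, was close to its own −0.29. For Rxrg (chromosome 1, 167598384 to 167639623), which was not tested, the neighbour median was 0.04.

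**Figure D4:**
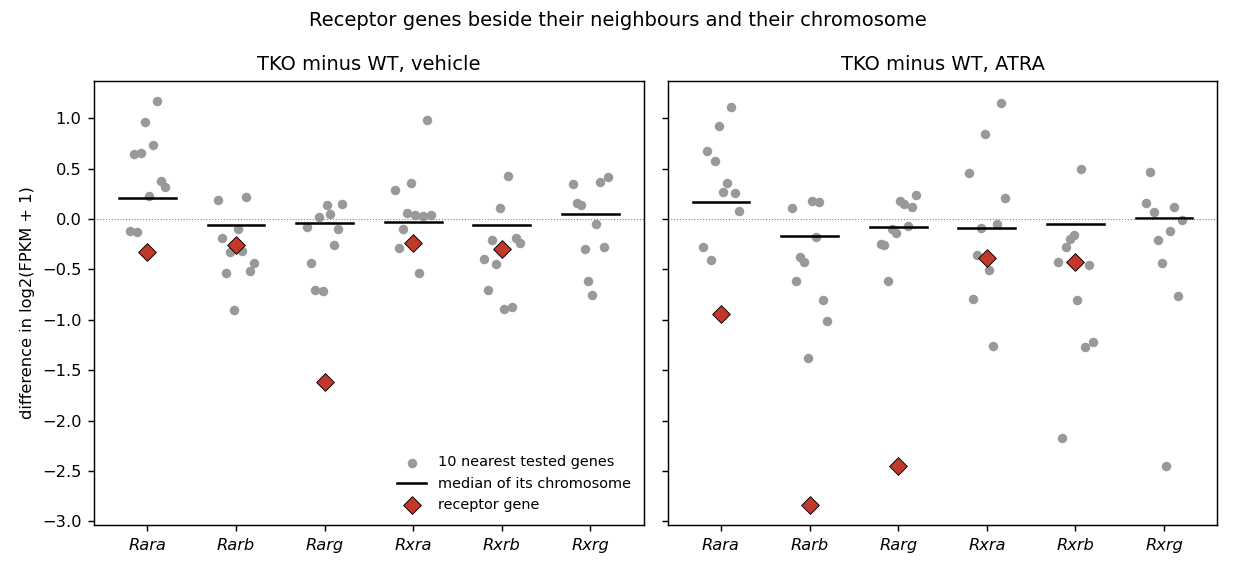
TKO minus WT difference in log2(FPKM + 1) (vertical axis) in vehicle (left) and under ATRA (right) for each receptor gene (diamond), its 10 nearest tested genes (grey points) and the median of its chromosome (line); Rxrg was not tested. Rara and Rarg lie under all 10 neighbours in both panels and Rarb under all 10 under ATRA, while Rxra and Rxrb lie among theirs.

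Genes of the same pathway were counted in lists, which were chosen with earlier results of these data known. The shares of all tested genes are therefore given for scale only. Of 14 tested direct RAR targets (Rarb left out) 13 rose with ATRA in WT and 0 fell, against 11.6% of all tested genes called higher. For 6 of the 14, among them Stra6, Dhrs3 and Hoxa4, the filter was reached only with the help of the WT libraries with ATRA, so that their selection favoured a rise; of the other 8, 7 rose. In TKO 0 of the 14 were called, where limma called 0% of all tested genes. Cyp26a1 went from 0.493 ± 0.191 to 194 ± 63.96 FPKM in WT (log2 change 6.98), Hoxa4, a homeobox gene of body axis patterning, from 0.603 ± 0.0528 to 14.03 ± 1.93 (3.22) and Stra6, a retinol transporter gene, from 0.5003 ± 0.363 to 22.7 ± 2.11. Of 10 tested genes of retinoid supply and clearance 8 rose and 0 fell, against 11.6% of all tested genes called higher. This list shares members with the first. Here 4 (Stra6, Dhrs3, Aldh1a2 and Cyp26b1) owed the filter to the same libraries, and of the other 6, 5 rose. Dhrs3, a retinaldehyde reductase gene, went from 0.568 ± 0.121 to 17.7 ± 4.67 FPKM.

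Genes for the proteins that RARs and RXRs work with were counted in the same way. Of 16 coregulator genes 1 rose with ATRA in WT, Nrip1, which encodes a corepressor that binds liganded receptors, from 1.52 ± 0.0874 to 9.66 ± 0.958 FPKM (log2 change 2.08, adjusted p = 2.51e-06 in limma), and 0 fell. That share is near the 11.6% of all tested genes called higher. Tbl1x, a subunit of the corepressor complex, and Crebbp, an acetyltransferase gene, had changes of 0.31 and 0.24 (adjusted p = 0.198 and 0.133). In TKO vehicle 1 coregulator was higher and 1 lower than in WT, Med1 (19.5 to 27.3 FPKM in the means, adjusted p = 0.00605) and Hdac3 (52.4 to 42.0 FPKM, adjusted p = 0.0143), where 24.6% of all tested genes were called. Of 13 receptors known to pair with RXR 5 were tested, and the counts here do not cover the others. Among those left out, Vdr had means of 0.282 FPKM in WT vehicle and 1.01 with ATRA, against 0.264 and 0.289 in TKO. Nr4a2, also left out, had 0.877 and 0.878 in WT. These changes were not tested. Nr4a1, an orphan receptor gene, fell with ATRA in WT from 26.9 ± 1.78 to 17.2 ± 0.569 FPKM (−0.62, adjusted p = 0.0172). Ppard and Nr1h2, the receptor genes for fatty acids and oxysterols, had changes of 0.29 and −0.17 (adjusted p = 0.142 and 0.37). In TKO vehicle 0 of the 5 were called against WT, where 24.6% of all tested genes were called. Under ATRA 1 was higher in TKO, Nr4a1 (0.78, adjusted p = 0.00181), and 1 lower, Ppard (−0.49, adjusted p = 0.0086), where 42.1% of all tested genes were called.

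Among 11671 other genes, those whose levels followed a receptor gene most closely over the 12 libraries were found by Pearson correlation of log2(FPKM + 1). The values describe libraries that share groups and letters, and they carry no test. Rarb was closest to Wnt5b (r = 0.996), Zeb2 (0.995) and Glud1 (0.995). Rara was closest to Galnt12 (0.974), Mbtps1 (0.972) and Fam19a5 (0.968), and Rarg to Ppap2c (0.987), Rps6ka4 (0.987) and Mdga1 (0.986). Rxra was closest to Rpf1 (0.971) and Rxrb to Zfp414 (0.967). For Rxrg, near 0 in all libraries, the closest gene, Ap4s1, reached 0.850. Glud1, the glutamate dehydrogenase gene, had means of 195 FPKM in WT vehicle and 370 after ATRA, against 176 and 178 in TKO cells. Mdga1 went with Rarg at 1.30, 2.23, 0.422 and 0.502 FPKM in the same order.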

How the data were processed

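The authors deposited 1 table of FPKM per gene for 12 libraries; no header names the unit, which was taken from the values and from Cufflinks in the submitters' processing notes (with STAR and GRCm38, without versions). Per the labels' protocols, TruSeq RNA libraries were read single-end at 51 bp. The table's positions are not GRCm38 positions, so coordinates come from GENCODE M21 by symbol. Of 23686 rows, 18 exact repeats were removed. Genes with at least 1 FPKM in 3 libraries (12362) were log2-transformed after adding 1 to each FPKM and tested with limma 3.58.1 (R 4.3.3) in a model of 4 group means that used all 12 libraries, trended and robust, with Benjamini-Hochberg adjustment over all tested genes at 0.05. The test was first run on simulated data with independent noise in each library and no effect of letters. That run does not show how the test behaves with libraries paired by letter. Depth is unknown from FPKM. Columns carry letters, not the replicate numbers of the titles, and were assigned to groups only. Deviations of same-letter libraries from their group means had r = 0.376 to 0.864 in the 6 pairs of one genotype and r = −0.515 to 0.287 across genotypes. Different letters had r = −0.730 to 0.315 within a genotype and −0.405 to 0.600 across genotypes. Within a genotype each same-letter r lay above all different-letter ones, so letters were taken to pair libraries there. This is weakest for WT letter D (0.376), which some pairs of unlike genotype and letter exceeded. Nothing in the labels says that libraries are separate cultures, so a p-value covers only the spread of these libraries, which may be technical. The 6 genes, the lists and the rules for naming genes (up to 3 per list by adjusted p for ATRA in WT, the 3 most correlated genes and the nearest neighbours per member; some are left out for brevity) were chosen with earlier results of these data known. The DR5 genes, Hdac3, Med1, Vdr, Nr4a2, the stem cell and endoderm markers named and the genes named for how they reached the filter were chosen after the data were seen.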

Additional observations from a re-analysis of the deposited data

Results flagged for a closer look

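The ATRA effect on Rarb differed between the genotypes by the test of the difference itself: TKO minus WT was −2.57 on the log2(FPKM + 1) scale (adjusted p = 1.77e-05 in limma) and −4.51 with a pseudocount of 0.1. With ATRA, Rarb was higher in 3 of 3 WT letters. In TKO it was lower in 3 of 3 letters, but at no more than 0.139 FPKM, and that change (−0.11) was not called. Rarb reached the filter only through the WT libraries with ATRA, which favoured the difference between genotypes. Without the filter its adjusted p was 3.24e-05 in limma. Groups of 3 libraries are too small to look for single outlying values.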

How the results depend on the processing

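Of 480 values of the 5 tested genes under alternatives, 461 kept their direction and side of the threshold, 11 lost and 4 gained a call, and 4 turned sign. The turns were in TKO cells: leaving out 1 library, the Rarg effect of ATRA ran from −0.133 to 0.132 and that of Rxra from −0.121 to 0.0578, with no call. Leaving out 1 library, receptor genes called were 3 for ATRA in WT, 0 in TKO, 1 to 2 for the difference of effects (2 without the D library of WT vehicle), 1 to 2 for TKO against WT in vehicle and 4 to 5 under ATRA. With the letter as a replicate block within genotype 3 were called for the difference and 1 for TKO against WT in vehicle; with only the compared groups that count was also 1. A block shared by both genotypes, which the pairing check does not back, changed no call of a receptor gene, and the block within genotype changed none beyond Rara, Rarg and Rxrb above. Over all genes the block gave 6887 calls for ATRA in WT (2063 without it; 5695 with WT libraries only and the block, chosen after seeing the data), 4820 for the difference (671 without it) and 0 in TKO. With TKO libraries only 1 gene was called in TKO, and 3 with the block. Leaving out 1 library gave 1189 to 2179 calls for ATRA in WT (1189 and 1312 without the D library of WT with ATRA or of WT vehicle), 406 to 710 for the difference, 1934 to 3172 for TKO against WT in vehicle and 4026 to 5443 under ATRA. The share of higher calls was 69.2%, 58.1% and 55.5% for ATRA in WT as deposited, after median-of-ratios scaling and after quantile normalization, 27.1%, 34.98% and 40.03% for the difference, and 38.9%, 49.6% and 49.4% for TKO against WT under ATRA. The causes were not tested. Unknown depth limits Rarb outside WT with ATRA, and Rxrg everywhere.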
